A study of Mus musculus with 3 samples.

Results

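The genes described here encode 10 enzymes of betaine, methionine and homocysteine metabolism: Bhmt, Bhmt2, Chdh, Dmgdh, Sardh, Gnmt, Cbs, Cth, Ahcy and Mtr. They were measured by 14 probe sets on Affymetrix mouse expression arrays, out of 18193 named genes in all, and were taken as every probe set whose single platform gene symbol is one of these names. Kidney RNA of 3 C57BL/6 mice was profiled, 1 array per mouse. A control mouse was compared with acetate-fed mouse 1 and acetate-fed mouse 2, which per the labels received acetate (C2, a short-chain fatty acid) at 200 mM in the drinking water for 6 weeks, starting at 3 weeks of age. The treatment text of the labels gives the same acetate wording for the control sample, so the control was identified by its agent label alone. No genetic change is named for any of the animals, and the labels do not give their sex. The list was drawn up with the differences between the control and the acetate-fed kidneys already known, so every difference below is a description without a test.

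Betaine is made in mitochondria by oxidation of choline, and it serves both as an osmolyte in the renal medulla and as a methyl donor. One methyl group of betaine can be passed to homocysteine to regenerate methionine, which leaves dimethylglycine, and a pair of mitochondrial flavoenzymes then strip the remaining methyl groups in turn to give sarcosine and glycine. Methionine in turn supplies S-adenosylmethionine, the general methyl donor, whose product S-adenosylhomocysteine is split to homocysteine. Homocysteine is either remethylated or passed through cystathionine to cysteine. Liver and kidney are the organs best known for the betaine branch.

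Values are the deposited log2 expression values, on which a difference of 1 is a 2-fold difference. The control is a single array with no error of its own, and acetate-fed values are also given as mean ± SD over n = 2 mice. Differences are acetate-fed minus control. A probe set's level depends on its probes, so levels are not compared between genes. All 10 genes and all 14 probe sets were among the 60% of probe sets with the highest means, the part of the array used for comparison with other genes (27022 probe sets, none with a mean under 4.21, standing for 13473 genes). The 3 arrays had medians of 4.91, 4.94 and 4.93.

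Bhmt, Bhmt2 and Dmgdh, neighbouring genes for 2 homocysteine methyltransferases and the dehydrogenase of dimethylglycine, were at least 2-fold below the control in each acetate-fed kidney, while Chdh, the gene of the first step of betaine synthesis, differed by -0.22 in mouse 1 and 0.01 in mouse 2. Sardh was lower by less, and the genes of the methionine cycle and of transsulfuration differed by at most 1.31-fold in either mouse. Of the 10 genes, 7 were lower in both mice, 0 were higher in both, and Chdh, Cbs and Cth were neither. Among all 13473 genes, 30.9% were lower and 26.0% higher in both mice. At least 1.5-fold lower in both mice, a difference of 0.58 on the log2 scale, were 3 of the 10 genes, against 1.60% of all genes; at 2-fold the 3 genes were the same, against 0.460%, and 0 members were higher, against 0.408% (1.75% at 1.5-fold). These shares are background only, because the genes were chosen on this contrast. Over the 10 genes the median was -0.25 for mouse 1 and -0.33 for mouse 2, where that over all genes was 0.00 for each.

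**Figure D1:**
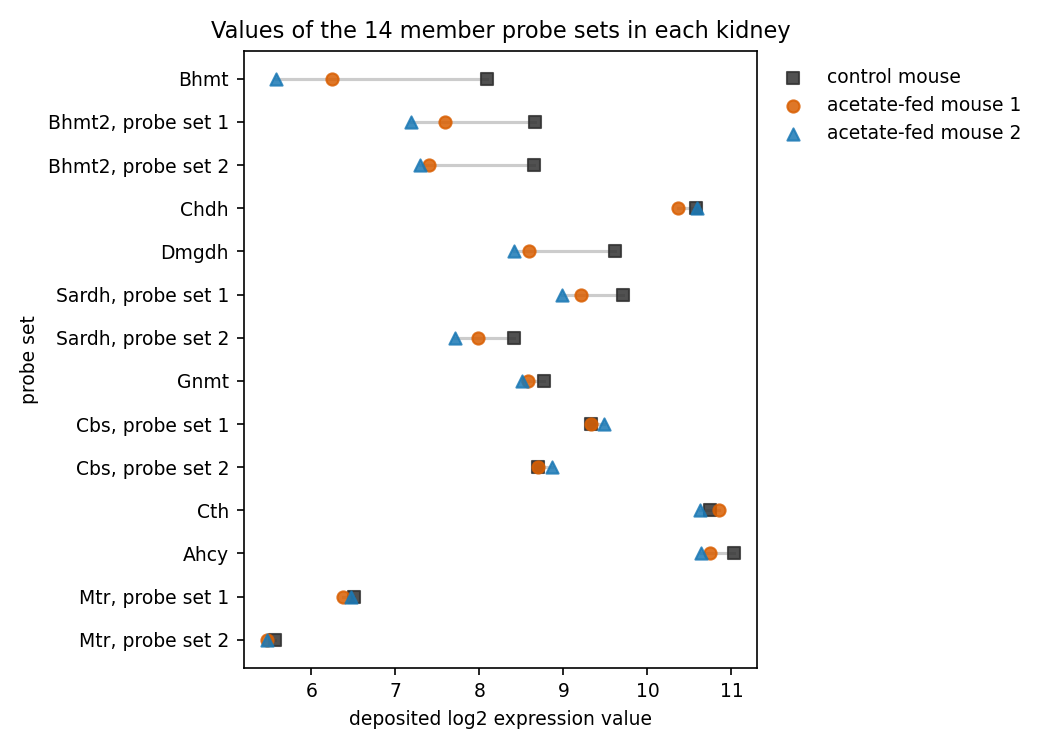
Deposited log2 value (horizontal axis) of each of the 14 probe sets (rows) in the control kidney (square) and the kidneys of acetate-fed mouse 1 (circle) and mouse 2 (triangle); the grey line joins the lowest and the highest value. The control lies to the right of both acetate-fed kidneys by more than 1 unit for Bhmt, Bhmt2 and Dmgdh, while the 3 symbols lie close together for Chdh, Cbs, Cth and Mtr.

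Bhmt encodes betaine-homocysteine methyltransferase, the zinc enzyme that transfers a methyl group from betaine to homocysteine. Its single probe set was 8.09 in the control kidney, 6.25 in acetate-fed mouse 1 and 5.58 in acetate-fed mouse 2. The control value stood above both acetate-fed values (5.92 ± 0.47, SD, n = 2), and mouse 2 was the lower of the pair. The differences were -1.84 and -2.51, or 3.58-fold and 5.69-fold lower, the largest among the 10 genes. By mean difference Bhmt was number 16 of the 13473 genes counted from the most reduced. In bulk kidney RNA, fewer cells of a type and less RNA per cell cannot be told apart. The acetate-fed pair differed from each other by 0.67 at Bhmt, against a median of 0.05 over all genes, and 1.89% of genes had a gap between the 2 mice at least as large. All 10 members had a gap above that median, which is lowered by the 29.9% of genes with exactly tied acetate-fed values.

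Bhmt2 encodes a related methyltransferase that uses S-methylmethionine in place of betaine as its methyl donor. Its probe set with the higher mean was 8.67 in the control kidney, 7.59 in mouse 1 and 7.19 in mouse 2 (7.39 ± 0.29, SD, n = 2). The other probe set, of a type that can match more than 1 transcript, was 8.65, 7.41 and 7.30. Both probe sets thus placed the control above both acetate-fed kidneys, 2.10-fold and 2.78-fold above mouse 1 and mouse 2 by the first and 2.37-fold and 2.56-fold by the second.

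Dmgdh encodes dimethylglycine dehydrogenase, which oxidises the dimethylglycine left by the betaine reaction and passes its electrons to the electron-transferring flavoprotein. Its probe set was 9.62 in the control kidney, 8.59 in mouse 1 and 8.41 in mouse 2 (8.50 ± 0.12, SD, n = 2). The control lay above both, by 2.04-fold and 2.31-fold, and the acetate-fed pair differed by 0.18.

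Sardh encodes sarcosine dehydrogenase, the flavoenzyme of the next step. The probe set with the higher mean was 9.72 in the control kidney, 9.22 in mouse 1 and 8.99 in mouse 2 (9.10 ± 0.16, SD, n = 2), and the other was 8.41, 7.99 and 7.71. The control again stood above both acetate-fed kidneys at both probe sets. The folds were 1.41 and 1.66 by the first probe set and 1.34 and 1.63 by the second, so Sardh lay past 1.5-fold in mouse 2 and short of it in mouse 1. It was the nearest member outside the 1.5-fold bound, and the nearest inside was Dmgdh, well past it at 2.04-fold and 2.31-fold.

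Chdh encodes choline dehydrogenase, the mitochondrial enzyme that starts the conversion of choline to betaine. It was 10.58 in the control kidney, 10.37 in mouse 1 and 10.59 in mouse 2 (10.48 ± 0.16, SD, n = 2). The control lay between the acetate-fed values, which differed from each other by 0.22.

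**Figure D2:**
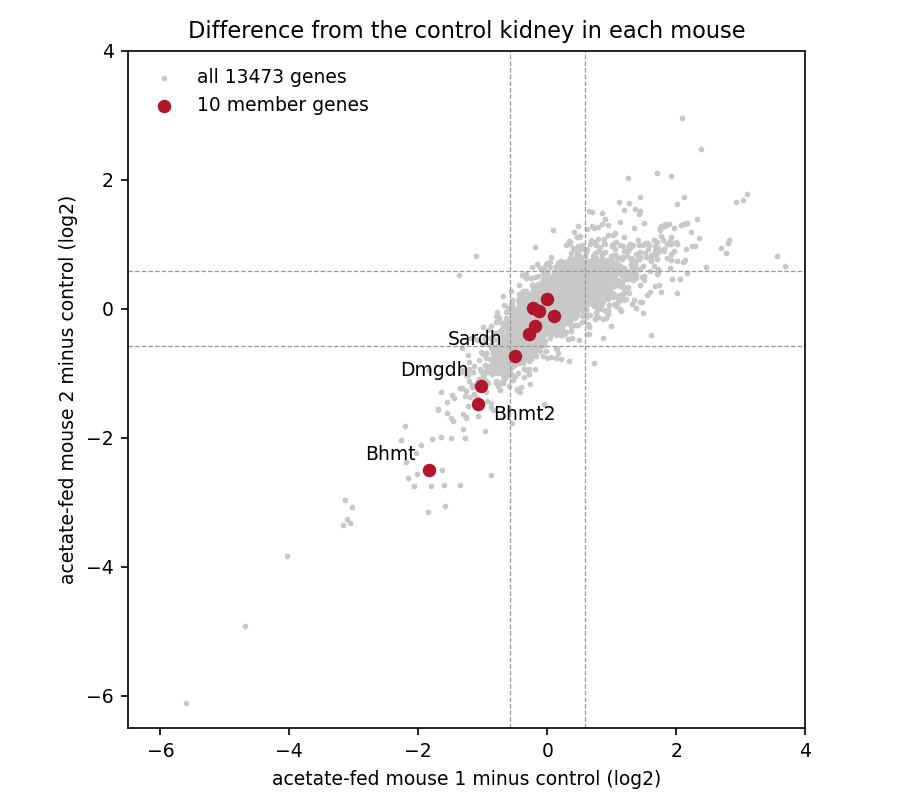
Log2 difference from the control kidney in acetate-fed mouse 1 (horizontal axis) and mouse 2 (vertical axis), one point per gene: grey for all 13473 genes, red for the 10 member genes, with dashed lines at 1.5-fold. Both axes share the 1 control array, which by itself spreads points along the rising diagonal; Bhmt, Bhmt2 and Dmgdh lie below 1.5-fold on both axes and Sardh on 1 of them.

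In the methionine cycle, the differences were small. Gnmt encodes glycine N-methyltransferase, which uses up S-adenosylmethionine to make sarcosine. It was 8.77 in the control kidney, 8.58 in mouse 1 and 8.51 in mouse 2 (8.54 ± 0.05, SD, n = 2), so that the control was the highest of the 3 by 1.14-fold and 1.20-fold. Ahcy encodes the hydrolase that splits S-adenosylhomocysteine into adenosine and homocysteine. It was 11.03 in the control kidney, 10.75 in mouse 1 and 10.63 in mouse 2 (10.69 ± 0.08, SD, n = 2), with the control above both by 1.22-fold and 1.31-fold. Mtr encodes methionine synthase, the cobalamin-dependent enzyme that remethylates homocysteine with a methyl group from folate, the alternative to Bhmt. It was 6.50 in the control kidney, 6.38 in mouse 1 and 6.47 in mouse 2 (6.42 ± 0.06, SD, n = 2). A lower-reading Mtr probe set was 5.56 in the control and 5.47 in both mice. The control was the highest value at both Mtr probe sets, but by no more than 1.09-fold. At the first of them mouse 2 lay nearer to the control than to mouse 1.

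The 2 genes of transsulfuration showed no common direction. Cbs encodes cystathionine beta-synthase, which joins homocysteine to serine. Its 2 probe sets were 9.33 and 8.70 in the control, 9.33 and 8.70 in mouse 1, and 9.48 and 8.87 in mouse 2. At both, mouse 2 was the highest of the 3 kidneys, by 1.11-fold and 1.13-fold over the control, while mouse 1 was level with the control. Cth encodes cystathionine gamma-lyase, which releases cysteine from cystathionine. It was 10.74 in the control kidney, 10.85 in mouse 1 and 10.63 in mouse 2 (10.74 ± 0.16, SD, n = 2), with the control between the acetate-fed values.

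Set against the spread within the acetate-fed pair, 6 of the 10 genes (Bhmt, Bhmt2, Dmgdh, Sardh, Gnmt and Ahcy) were lower than the control in both mice by more than the gap between the mice, as were 21.5% of all genes. Exactly tied acetate-fed values, which 29.9% of all genes had, meet that condition with any decrease; none of these 6 was tied. At 7 of the 10 genes, among them Bhmt, Bhmt2, Dmgdh and Sardh, mouse 2 was lower than mouse 1, against 31.3% of all genes. Tied genes cannot count there, which lowers the 31.3%, and none of the 10 members was tied.

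Bhmt, Bhmt2 and Dmgdh lie side by side on chromosome 13, an arrangement noticed after their values were seen. In the RefSeq annotation (GRCm38.p6), the start of Bhmt2 lies 36.5 kb from that of Bhmt, and Bhmt2 and Dmgdh start 133 bases apart on opposite strands and run away from each other. Opposite strands starting this way within 1 kb of each other are common, at 12.2% of the 27025 genes of the RefSeq promoter table. The other 7 members lie elsewhere: Mtr further along chromosome 13, Sardh and Ahcy on chromosome 2, Cth on 3, Chdh on 14, and Cbs and Gnmt on 17. Promoter sequence was matched for 9 of the 10 genes. The 2 stretches below are the start-to-start interval shared by Bhmt2 and Dmgdh and the 250 bases before the start of Bhmt, shown because these are the promoters of the 3 genes that were lower together. Capitals mark GGGCGG (the GC box) or its reverse complement in the first, and AGGTCA (the half-site read by many nuclear receptors) in the second.
Bhmt2 to Dmgdh, chr13:93674303-93674435, plus strand: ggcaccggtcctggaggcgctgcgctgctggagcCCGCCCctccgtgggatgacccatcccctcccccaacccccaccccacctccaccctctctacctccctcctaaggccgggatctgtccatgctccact
Bhmt, chr13:93637759-93638008, minus strand: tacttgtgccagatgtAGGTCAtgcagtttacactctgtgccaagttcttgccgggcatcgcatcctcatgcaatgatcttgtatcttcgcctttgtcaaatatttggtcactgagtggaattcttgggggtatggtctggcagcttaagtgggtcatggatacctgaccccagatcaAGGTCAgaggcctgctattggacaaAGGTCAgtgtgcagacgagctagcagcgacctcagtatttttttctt

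The pair of promoters had little in common in the letters searched. The 133-base interval between Bhmt2 and Dmgdh was 69.9% G and C. In windows of 250 bases before the start, the share was 48% for Bhmt, 74% for Bhmt2 and 64.8% for Dmgdh. The median over 32851 such RefSeq windows was 52.4%. AGGTCA, searched on both strands, occurred 3 times before Bhmt, 47, 72 and 234 bases upstream of the start counted from its first base, and 0 times in the windows of Bhmt2 and Dmgdh. Of all windows, 14.0% held it at least once and 0.13% at least 3 times. GGGCGG occurred 1 time in the 133 bases between Bhmt2 and Dmgdh. In the overlapping 250-base windows of Bhmt2 and Dmgdh it occurred 2 times and 1 time, and in that of Bhmt 0 times. Of all windows, 32.7% held at least 1 match. TATAAA was found in none of the members' windows (12.4% of all), and CACGTG in 1, that of Cbs (6.02% of all). The motifs were chosen after the sequences were seen, and a match describes letters only.

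Of the 11 other genes that start within 500 kb of Bhmt, 5 were measured above the filter on low values, and none of these was 1.5-fold lower in both mice. Arsb, the lysosomal arylsulfatase B gene on the far side of Dmgdh, was 9.85 in the control kidney, 9.63 in mouse 1 and 9.57 in mouse 2. A further Arsb probe set was 7.65, 6.98 and 7.28, and the last was 4.44 on all 3 arrays. Jmy, the nearest measured gene on the Bhmt side, which encodes an actin nucleator and p53 cofactor, was 8.02 in all 3 kidneys. Beyond it, Homer1, a scaffold protein gene, was 7.31 in the control and 6.90 and 6.91 in the acetate-fed mice, 1.33-fold and 1.32-fold lower. The other 2 Homer1 probe sets above the filter differed by -0.58 and -0.59 in mouse 1 and by -0.25 and -0.16 in mouse 2. Tent2 was 7.41 on every array, and Lhfpl2 was 6.63 in the control and 6.75 in both mice. The lncRNA gene AW495222, which starts past the start of Dmgdh on the opposite strand, was 3.97 in the control kidney, 3.28 in mouse 1 and 3.09 in mouse 2, below the filter. Its values were 1.61-fold and 1.84-fold lower, at a level where detection is not known. At the 3 enzyme genes, grouped after their values were seen, the difference was at least 2-fold. At the probe sets that stand for the 5 neighbours above the filter it was at most 1.33-fold, with Jmy and Tent2 exactly tied. That limit leaves out AW495222, below the filter, and the further Arsb probe set, 1.59-fold lower in mouse 1.

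**Figure D3:**
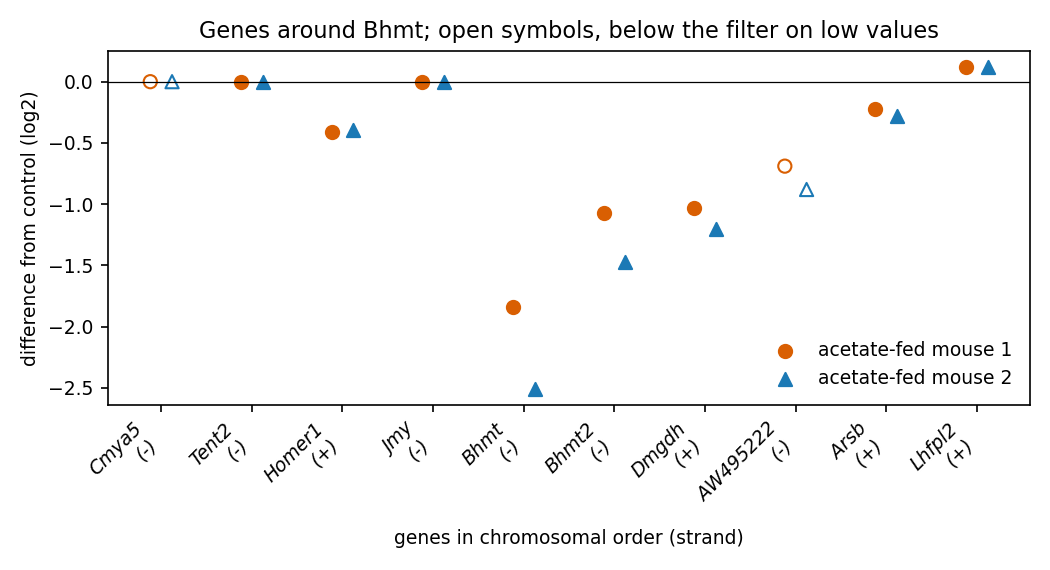
Log2 difference from the control (vertical axis) in acetate-fed mouse 1 (circles) and mouse 2 (triangles) for the genes with a named probe set that start within 500 kb of Bhmt, in chromosomal order with their strand; open symbols are probe sets below the filter on low values. The differences are between -1.03 and -2.51 at Bhmt, Bhmt2 and Dmgdh, and between -0.41 and 0.12 at the other filled symbols.

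The 5 genes whose pair of differences lay nearest to that of Bhmt, by the distance between the 2 log2 differences, were Cyp2e1 (distance 0.19), Cyp4a14 (0.21), Ces2b (0.25), Apoc1 (0.33) and Ly6f (0.33). With 3 arrays this likeness rests on 2 numbers per gene that share a control. Cyp2e1, a cytochrome that oxidises ethanol, was 10.47 in the control kidney, 8.45 in mouse 1 and 7.91 in mouse 2. Cyp4a14, a fatty acid hydroxylase of the cytochrome P450 family, was 11.07, 9.43 and 8.56. Both had the order seen at Bhmt, with the control highest and mouse 2 lowest, which follows from their being picked for nearness to Bhmt.

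The wider pathway was described by 100 further genes in 6 lists, of which 87 passed the filter. Of the 87, 55 were lower and 17 higher in both mice, counts that stand beside 30.9% and 26.0% of all genes here and in each list below. Their median was -0.19 for mouse 1 and -0.10 for mouse 2. At least 1.5-fold, 3 were lower (Tst, Gldc and Gclc; all genes 1.60%) and 2 higher (Slc6a12 and Inmt; all genes 1.75%). These lists, too, were drawn up with earlier results of these arrays known.

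In choline and betaine supply, 10 of 19 genes were lower and 7 higher in both mice. Slc6a12, the betaine transporter that medullary cells use to take up the osmolyte, was 5.07 in the control kidney, 5.75 in mouse 1 and 6.14 in mouse 2. It thus lay on the other side of the control from Bhmt, 1.60-fold and 2.10-fold higher. Chka, the choline kinase that commits choline to phosphatidylcholine, was 7.97, 8.45 and 8.80, or 1.40-fold and 1.78-fold higher, and its 3 probe sets had mean differences from 0.56 to 0.74. Slc22a2, the basolateral organic cation transporter of the proximal tubule, was 10.22, 9.67 and 9.44, lower by 1.46-fold and 1.72-fold. Aldh7a1, which oxidises betaine aldehyde to betaine and was picked after its values were seen, was 11.60, 11.15 and 11.17. Its 2 probe sets had mean differences from -0.44 to 0.00, so they did not both read lower.

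Among methionine cycle genes and methyltransferases, 9 of 13 were lower and 2 higher in both mice. Inmt, an indolethylamine methyltransferase, was 10.39 in the control kidney, 11.06 in mouse 1 and 11.39 in mouse 2, above the control by 1.59-fold and 2.00-fold. Gamt, which makes creatine from guanidinoacetate, was 8.01, 7.61 and 7.38, lower by 1.32-fold and 1.54-fold. Nnmt, the nicotinamide methyltransferase, was 6.40, 6.11 and 5.63, lower by 1.22-fold and 1.71-fold. The 3 named methyltransferases therefore did not share a direction.

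In the folate one-carbon pool, 11 of 19 genes were lower and 4 higher in both mice. Gldc, the decarboxylase of the mitochondrial glycine cleavage system, was 9.56 in the control kidney, 8.22 in mouse 1 and 8.59 in mouse 2, or 2.53-fold and 1.97-fold lower. Shmt2, the mitochondrial serine hydroxymethyltransferase, was 9.77, 9.06 and 9.22, or 1.64-fold and 1.47-fold lower. At both, mouse 1 was the lower of the pair, unlike at Bhmt. Slc19a1, the reduced folate carrier, was 10.17, 9.73 and 9.74, and its 3 probe sets had mean differences from -0.43 to -0.09.

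In transsulfuration, cysteine and taurine metabolism downstream of Cbs and Cth, 8 of 15 genes were lower and 3 higher in both mice. Tst, the mitochondrial sulfurtransferase rhodanese, was 10.42 in the control kidney, 8.87 in mouse 1 and 8.98 in mouse 2, or 2.93-fold and 2.73-fold lower, the largest difference in the wider lists. Gclc, the catalytic subunit that starts glutathione synthesis from cysteine, was 12.03, 10.79 and 11.09, or 2.37-fold and 1.93-fold lower, with 2 probe sets at mean differences of -1.13 and -1.10. Ethe1 and Sqor, mitochondrial enzymes of sulfide oxidation, were lower by 1.49-fold and 1.29-fold in mouse 1 and by 1.39-fold and 1.38-fold in mouse 2. The control was the highest kidney at each of these 4 genes.

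The remaining lists held no gene past 1.5-fold in both mice. In methionine salvage and polyamine synthesis, 7 of 9 genes were lower and 1 higher in both mice. Mri1, of methionine salvage, was lower by 1.35-fold and 1.20-fold. Azin1, the antizyme inhibitor, was lower by 1.21-fold and 1.24-fold, with 3 probe sets between -0.29 and 0.00. In cobalamin handling, 10 of 12 genes were lower and 0 higher in both mice. Cubn and Amn, which form the tubular receptor cubam, were lower by 1.31-fold and 1.19-fold in mouse 1 and by 1.49-fold and 1.29-fold in mouse 2.

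**Figure D4:**
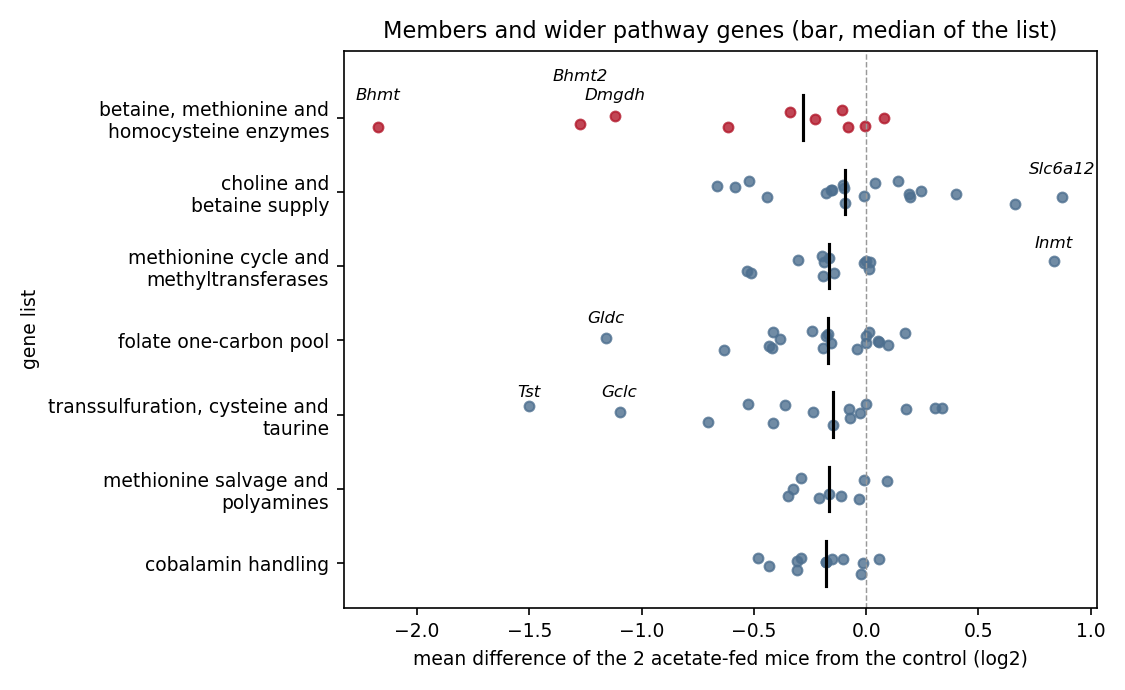
Mean log2 difference of the 2 acetate-fed kidneys from the control (horizontal axis), one point per gene that passed the filter, for the 10 members (red) and the 6 wider lists (blue), with a bar at each list's median and names on the genes past 1.5-fold in 1 direction in both mice. All 7 medians lie between -0.28 and -0.09; the vertical scatter within a row has no meaning.

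Markers of kidney segments and of other tissues were read on the same arrays. The kidney label was checked against Umod, Slc12a1, Aqp2, Slc34a1 and Kap, which read between 11.43 and 14.53 on every array. Umod, the uromodulin gene of the thick ascending limb, was 13.53, 13.67 and 13.64. Of 16 proximal tubule markers, 12 were lower and 3 higher in both mice (all genes 30.9% and 26.0%), and the medians were -0.23 for mouse 1 and -0.33 for mouse 2. Cyp2e1, Cyp7b1, Pck1, Slc13a3, Slc22a6 and Slc22a8, 6 of the 16, were at least 1.5-fold lower in both mice (all genes 1.60%). The 3 probe sets of Slc13a3 had mean differences from -1.39 to -0.09. The summed level of the 16 was 16.73 in the control and 16.52 and 16.36 in the acetate-fed kidneys on the log2 scale. Slc34a1, the phosphate transporter, differed by -0.17 and -0.24, and Slc7a13, a transporter of the late proximal tubule, was higher by 2.10 and 2.95 on the log2 scale. The differences at Bhmt, Bhmt2 and Dmgdh were larger than the list's medians. Their mean differences were -2.17, -1.27 and -1.12, and those of the 6 markers ran from -2.29 to -0.77. The -2.29 was Cyp2e1 alone, and the next lowest was Slc13a3 at -1.31. The 6 were picked for being lower, and the other markers fell short of that bound in at least 1 mouse or were higher. Of 8 loop and distal tubule markers 2 were lower and 5 higher in both mice, of 9 collecting duct markers 1 and 4, and of 5 podocyte markers 0 and 5. A part of proximal tubule content in the enzyme differences was not tested.

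Hepatocyte markers are given because Bhmt is a major liver transcript. Of 9 measured, 5 passed the filter, of which 2 were lower and 1 higher in both mice, and Tat, Cps1, Cyp3a11 and Apoh were below it in every kidney. Alb was 7.85 in the control kidney, 6.20 in mouse 1 and 6.56 in mouse 2, Apoa2 was 7.74, 6.70 and 6.81, and Apoa1 was 5.73 on all 3 arrays. The summed level of the 5 was 11.11 in the control kidney, 10.55 in mouse 1 and 11.27 in mouse 2. That sum was mostly Ttr, which was 10.72, 10.29 and 11.10. Without Ttr, a sum added after its values were seen, the other 4 summed to 9.01, 7.97 and 8.13, lower than the control by 2.06-fold and 1.84-fold. The 4 did not share a direction: Apoa1 was level, and Ahsg was higher in both mice, at 4.17, 4.36 and 4.36. Alb and Apoa2 were lower in both mice, with mouse 1 the lower of the pair. Of 7 measured adipocyte markers, 6 passed the filter and all 6 were lower in both mice; Lep was at 2.67 on all 3 arrays. Adipoq, which encodes adiponectin, was 9.98 in the control kidney, 4.38 in mouse 1 and 3.87 in mouse 2, and the summed level of the 6 was 12.05, 10.03 and 10.15. Of 10 measured macrophage markers, 9 passed the filter and all 9 were higher in both mice. The summed level of the 9 was 11.20 in the control kidney, 13.11 in mouse 1 and 12.22 in mouse 2. Itgam, below the filter, was 3.44, 3.79 and 3.38. Adrenal cortex markers passed the filter at 2 of 6 genes, with a summed level of 6.49, 6.49 and 6.51. The part of liver-type, adipose or macrophage RNA in the differences of the enzyme genes was not tested. Xist was 11.80, 12.03 and 11.85, and Eif2s3y, Kdm5d and Uty were below the filter on every array: all 3 kidneys had a high value of the X-inactivation transcript and low values of Y-linked ones.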

How the data were processed

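The authors deposited 1 table of log2 expression values for 45101 probe sets on 3 arrays (1 control, 2 acetate-fed), with nearly equal quartiles. The submitters' processing notes name MAS5. They give it no role or version, and background correction and detection calls are not stated in the sources at hand. Of all probe sets, 30% have exactly tied values on the 3 arrays, which MAS5, computing each array by itself, would not give; the summary behind the deposited values is therefore unknown. Without scanner files, the number of arrays limits the precision.

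After leaving out 64 control probe sets, 34945 of 45037 had 1 gene symbol, 932 several and 9160 none; 34741 matched RefSeq by Entrez identifier and 0 symbols changed. A gene was represented by its probe set with the highest mean in the upper 60% (27022 probe sets). No test was run, since the contrast chose the genes and the control is 1 array. Genes were called at 1.5-fold in the same direction in both mice. The calling step was run on simulated data with planted shifts well past that bound, which checks the code only. Named were all members, wider-list genes past 1.5-fold and the next 2 per list, genes starting within 500 kb of Bhmt, and the 5 nearest to Bhmt in both differences. Members and lists were chosen with earlier results of these data known. Python 3.11.15, pandas 2.3.3 and matplotlib 3.10.9 were used. Alternatives covered normalization, an offset, the filter, the probe set rule, the fold and each acetate-fed mouse.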

Additional observations from a re-analysis of the deposited data

How the results depend on the processing

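Bhmt, Bhmt2 and Dmgdh were the genes at least 1.5-fold lower under quantile normalization, median centring, an offset of 16 on the linear scale, no filter, the upper 40% of probe sets, the median over probe sets, and a 2-fold bound. Without acetate replicate 1 the count was 4, with Sardh, and without replicate 2 it was 3. Across these settings the log2 difference lay between -2.51 and -1.84 for Bhmt, -1.48 and -1.07 for Bhmt2, and -1.21 and -1.03 for Dmgdh. The median over the members lay between -0.33 and -0.25. In the wider lists, the count of lower genes was 1 (Tst) at 2-fold, and 8 or 6 with 1 acetate-fed mouse left out, since a single mouse then had to meet the bound. The count of higher genes was 1 (Inmt, without Slc6a12) with the offset of 16 and 1 in the upper 40%, and 0 at 2-fold. The control could not be left out. No paired analysis was possible because 1 control array stood against 2 acetate-fed arrays.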
